A study of Mus musculus with 17 samples.

Results

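The genes described here are the 4 surfactant protein genes Sftpa1, Sftpb, Sftpc and Sftpd and 6 further genes that mark alveolar type 2 cells, Slc34a2, Lamp3, Abca3, Nkx2-1, Napsa and Lyz1. They were picked by symbol, 10 of the 55421 genes in the deposited count matrix, and all 10 had enough counts for the fit of 21136 genes. The RNA came from lung cells labelled primary fibroblasts, grown in 10% serum until near confluence and passaged 1 time, with 1 library a mouse, in a study that asked how loss of the receptor Ephb4 in fibroblasts alters bleomycin-induced lung fibrosis. All 17 mice carried Ephb4f/f; Col1a2-CreERT2, a floxed Ephb4 with a tamoxifen-inducible Cre under the Col1a2 promoter, so deletion is confined to Col1a2-expressing cells. Ephb4 CKO mice received 4-hydroxytamoxifen at 1 mg a day for 5 days at 4 weeks of age, and Ephb4 control mice received corn oil. At 6 weeks of age mice were given bleomycin at 1.2 U/kg, a drug that injures the alveolar epithelium and is followed by fibrosis, or PBS, and cells were harvested on day 14. Among Ephb4 control mice 4 had PBS and 4 bleomycin, and among Ephb4 CKO mice 5 had PBS and 4 bleomycin. Within a group mice are numbered in the order of deposit, and a number pairs no mice.

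Alveolar type 2 cells are cuboidal epithelial cells that make pulmonary surfactant, the lipid and protein film that lowers surface tension in the alveolus, and that renew the alveolar epithelium after injury. They store surfactant in lamellar bodies: the small hydrophobic proteins SP-B and SP-C are processed from longer precursors and packed there with phospholipid, while the collectins SP-A and SP-D act in innate defence of the air space. The transcription factor NKX2-1, with FOXA and C/EBP factors, drives many of these genes. In a bulk culture fewer cells of a type and less RNA per cell cannot be told apart.

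Total counts ran from 66540022 to 120554468 a library, with a median of 93075927. Values are in CPM, counts scaled to a common library total (counts per 1e+06) with TMM factors. A count of 0 allows a level of up to 0.0228 to 0.0497 CPM, depending on the library (3 counts, counting error only). The fibroblast label was not borne out equally. The summed level of 10 fibroblast markers ran from 5341 to 11640 CPM in Ephb4 control bleomycin libraries, the only group high throughout. It was 13.2 to 7092 CPM (median 75.1) in Ephb4 control PBS libraries. In Ephb4 CKO libraries it was 29.4 to 1806 CPM (median 146) after PBS and 15.6 to 1469 CPM (median 239) after bleomycin. Markers of macrophages, 10 in all, summed to 1170 to 38620 CPM over the 17 libraries. Ephb4, the targeted gene, was at 2.35 to 33.1 CPM (Ephb4 control PBS), 13.5 to 65.5 (Ephb4 control bleomycin), 3.92 to 23.1 (Ephb4 CKO PBS) and 4.99 to 14.3 (Ephb4 CKO bleomycin). Sex-linked genes went against the recorded sex in 3 libraries, mouse 2 of the Ephb4 control bleomycin group and mice 1 and 2 of the Ephb4 CKO bleomycin group, and values without them are given below.

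The pattern that runs through the 10 genes was a division into 7 and 3. Sftpa1, Sftpb, Sftpc, Sftpd, Slc34a2, Lamp3 and Nkx2-1 were scarce in most libraries and tended to be high together in a few of them. In the Ephb4 control bleomycin group this held less fully. Its mouse 1 was in the top 8 of 17 libraries for all 7 genes but in the top 4 for only 3. Abca3, Napsa and Lyz1 had at least 446 counts in every library, and their Pearson r with the 7 across libraries, on log2(CPM + 0.1), ran from -0.217 to 0.653. This division was made after the values were seen, and nothing below is a test of it. Per kilobase of annotated exon, the median level over 17 libraries fell from Lyz1 (352 CPM per kb) to Napsa (7.02), Abca3 (5.96), Sftpc (5.20), Sftpd (2.53), Sftpb (1.04), Slc34a2 (0.574), Lamp3 (0.265), Nkx2-1 (0.258) and Sftpa1 (0.117). Lyz1 stood above Napsa in 17 of 17 libraries. Other neighbours in this order changed places: Abca3 exceeded Sftpc in 9 of 17 libraries and Lamp3 exceeded Nkx2-1 in 8 of 17, so their spread does not separate them.

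Sftpb encodes the precursor of SP-B, without which lamellar bodies do not form and newborn mice cannot breathe. In the Ephb4 control libraries its level was 5.97, 14.8, 83.4 and 0.992 CPM in PBS mice 1 to 4, and 10.8, 3.29, 0.0986 and 0.146 CPM in bleomycin mice 1 to 4. In the Ephb4 CKO libraries it was 0.127, 1.04, 72.5, 2.54 and 0.725 CPM in PBS mice 1 to 5, and 1.96, 0, 34.8 and 2.05 CPM in bleomycin mice 1 to 4. A single mouse, mouse 3, supplied 79.3% of the Sftpb of the Ephb4 control PBS group, 94.2% of the Ephb4 CKO PBS group and 89.7% of the Ephb4 CKO bleomycin group, and every pair of groups overlapped. Group means were 26.3 ± 38.5 (SD, n = 4), 3.59 ± 5.05 (n = 4), 15.4 ± 31.9 (n = 5) and 9.71 ± 16.8 CPM (n = 4) in the order given. The SD exceeded the mean in each group.

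Sftpc encodes the precursor of SP-C, a lung surfactant peptide made almost solely by alveolar type 2 cells, and lies at chr14:70520949-70524081, minus strand, in GRCm38. It stood at 35.0, 9.09, 5.51 and 3.31 CPM in Ephb4 control PBS mice 1 to 4 and at 48.1, 2.60, 0.228 and 0.251 CPM in Ephb4 control bleomycin mice 1 to 4. Ephb4 CKO PBS mice 1 to 5 had 0, 3.36, 26.6, 5.38 and 3.66 CPM, and Ephb4 CKO bleomycin mice 1 to 4 had 9.67, 0, 68.7 and 8.23 CPM. The groups overlapped, since each bleomycin group held 1 library above all PBS libraries and at least 1 below all Ephb4 control PBS libraries. In Ephb4 control bleomycin mouse 1, where Sftpc reached 5780 counts, it made up 94.0% of its group's summed level, while mouse 3 had 30 counts and mouse 4 had 24.

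Sftpb and Sftpc were not present in 1 ratio. Over the 15 libraries with counts for both, there were 0.171 to 15.1 Sftpb counts for each Sftpc count. Of the libraries with the most surfactant RNA, Ephb4 control PBS mouse 3 had 15.1, Ephb4 CKO PBS mouse 3 had 2.73, Ephb4 CKO bleomycin mouse 3 had 0.507 and Ephb4 control bleomycin mouse 1 had 0.225. The last of these was high in Sftpc and Sftpd and moderate in Sftpb, and the first was the highest of all in Sftpb with Sftpc near its median.

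Sftpa1 (SP-A) and Sftpd (SP-D) encode soluble collectins that bind microbial sugars, and are near each other on chromosome 14, at 41131782-41136452 and 41172214-41185149. Sftpa1 was the scarcest gene per kilobase: 0.170, 1.39, 1.27 and 0.597 CPM in Ephb4 control PBS mice, 0.400, 0.0637, 0 and 0 in Ephb4 control bleomycin mice, 0.101, 0, 2.95, 0.334 and 0.505 in Ephb4 CKO PBS mice and 0.262, 0.141, 2.20 and 0.641 in Ephb4 CKO bleomycin mice. Its 3 libraries at 0 included 2 of the 4 Ephb4 control bleomycin mice, and the highest values were again in mouse 3 of both Ephb4 CKO groups. Sftpd was found in every library, at 10.3, 22.3, 25.0 and 2.13 CPM in Ephb4 control PBS mice and 30.4, 2.19, 0.667 and 0.251 CPM in Ephb4 control bleomycin mice. In Ephb4 CKO mice Sftpd was at 11.5, 6.45, 42.2, 4.44 and 3.39 CPM after PBS and 5.38, 0.198, 80.1 and 6.12 CPM after bleomycin. From lowest to highest Sftpd differed 405.5-fold, with both extremes in the same group, Ephb4 CKO bleomycin.

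Slc34a2 encodes the sodium phosphate cotransporter of the type 2 cell's apical membrane, and Lamp3 a membrane glycoprotein of lamellar bodies. Slc34a2 was at 6.72, 8.62, 36.2 and 1.83 CPM in Ephb4 control PBS mice, 8.73, 2.52, 0 and 0.251 in Ephb4 control bleomycin mice, 4.27, 0.133, 30.8, 2.88 and 0.673 in Ephb4 CKO PBS mice and 0.889, 0, 31.7 and 3.60 in Ephb4 CKO bleomycin mice. Lamp3, also a marker of mature dendritic cells, was at 1.88, 2.50, 18.1 and 0.890 CPM, 1.85, 0.337, 0 and 0.0939 CPM, 0.215, 0.563, 5.89, 2.37 and 0.543 CPM, and 0.524, 0, 13.6 and 1.78 CPM in the same order. Both genes peaked in mouse 3 of the Ephb4 control PBS, Ephb4 CKO PBS and Ephb4 CKO bleomycin groups, and both were at 0 in mouse 3 of the Ephb4 control bleomycin group and mouse 2 of the Ephb4 CKO bleomycin group. Of 10 dendritic cell markers, 8 were in the fit, their summed level ran from 63.5 to 662 CPM, and the highest sum was in Ephb4 CKO PBS mouse 5, where Lamp3 was at 0.543 CPM. Of the 10, 5 were at 0 in no library, Cd74 (7.28 to 516 CPM), Fscn1 (2.08 to 262), H2-Ab1 (2.52 to 119), Zbtb46 and Clec9a, and 5 were at 0 in some, Ccr7 in 3, Xcr1 and Itgae in 7 each, Flt3 in 9 and Cd209a in 16. Flt3 was highest, at 1.40 CPM, in Ephb4 control PBS mouse 3, which also had the highest Lamp3. All but Cd74 are named after their values were seen, and the part of dendritic cells in the Lamp3 values was not tested.

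Nkx2-1, the lung epithelial transcription factor, was low in every library. Its level was 1.87, 0.733, 1.94 and 0.172 CPM in Ephb4 control PBS mice, 1.87, 0.464, 0.159 and 0.230 in Ephb4 control bleomycin mice, 0.291, 2.48, 2.34, 0.291 and 0.388 in Ephb4 CKO PBS mice and 0.973, 0.122, 4.11 and 0.879 in Ephb4 CKO bleomycin mice. The highest value came from Ephb4 CKO bleomycin mouse 3 and the lowest from mouse 2 of the same group, a 33.6-fold span. Ephb4 CKO PBS mouse 2 had the second highest Nkx2-1, and yet Sftpa1 at 0, Sftpb at 1.04 CPM and Slc34a2 at 0.133 CPM. The same library had the highest summed level of 11 pan-epithelial markers, 3944 CPM, with Krt8, a keratin of simple epithelia, at 1020 CPM, and, named after their values were seen, the highest Foxa1 (8.63 CPM) and Foxa2 (11.2 CPM) of the 17.

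**Figure D1:**
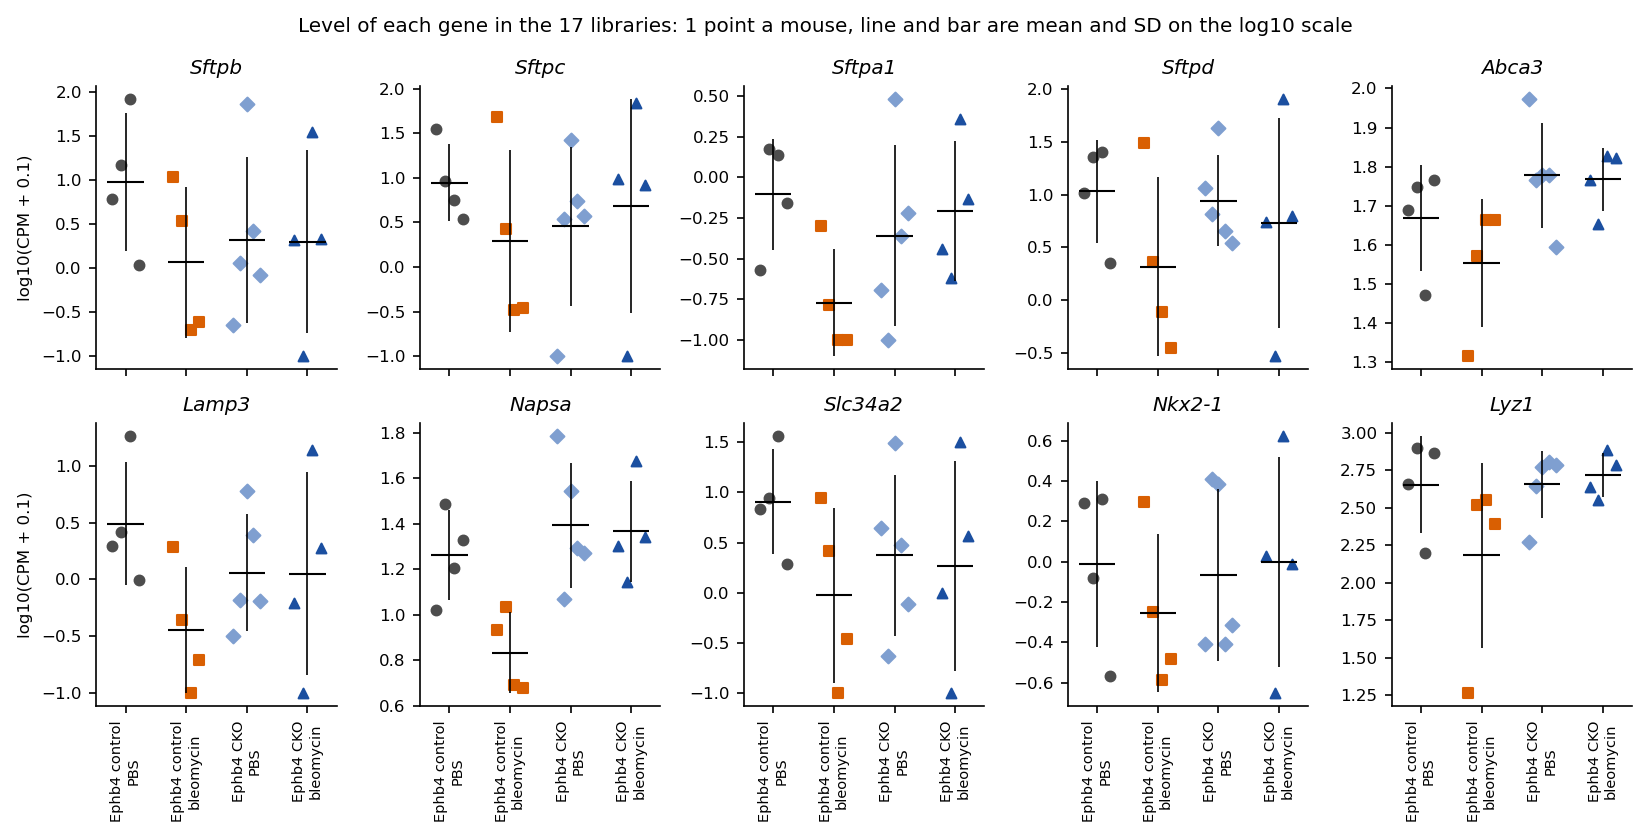
Level of each of the 10 genes in the 17 libraries, as log10(CPM + 0.1), by group; each point is 1 mouse, the horizontal line the mean and the vertical bar the SD on that scale. In the upper left panel Sftpb has 1 point near or above 34.8 CPM in each of 3 groups, while Abca3 stays between 20.6 and 94.0 CPM.

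Promoter sequence was at hand for 7 of the 10 genes, as RefSeq start sites on GRCm38.p6; Sftpc, Sftpd and Napsa had no entry. The 250 bases before the start were searched on both strands for the letters CTCAAG (the core of NKX2-1 sites), TGTTTAC (FOXA) and TTGNNCAA (C/EBP). Only the 4 promoters with a match are shown, with the matches in capitals and the last base next to the start:
Sftpb, chr6:72304360-72304609, plus strand: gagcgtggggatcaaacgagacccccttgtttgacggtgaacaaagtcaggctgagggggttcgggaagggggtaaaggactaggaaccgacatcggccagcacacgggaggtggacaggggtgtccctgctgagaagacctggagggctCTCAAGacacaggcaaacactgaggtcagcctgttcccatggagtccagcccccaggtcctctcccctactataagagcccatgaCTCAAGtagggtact
Sftpa1, chr14:41131538-41131787, plus strand: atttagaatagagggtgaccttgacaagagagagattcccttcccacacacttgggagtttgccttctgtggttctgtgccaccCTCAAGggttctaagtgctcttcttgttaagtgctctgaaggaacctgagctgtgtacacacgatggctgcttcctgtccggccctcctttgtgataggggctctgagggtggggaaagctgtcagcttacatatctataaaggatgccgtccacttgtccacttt
Lamp3, chr16:19706366-19706615, minus strand: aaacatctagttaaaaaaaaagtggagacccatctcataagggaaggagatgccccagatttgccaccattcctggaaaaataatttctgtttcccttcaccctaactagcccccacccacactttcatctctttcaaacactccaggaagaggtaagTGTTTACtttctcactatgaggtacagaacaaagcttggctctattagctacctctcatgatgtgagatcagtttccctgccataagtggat
Slc34a2, chr5:53049103-53049352, plus strand: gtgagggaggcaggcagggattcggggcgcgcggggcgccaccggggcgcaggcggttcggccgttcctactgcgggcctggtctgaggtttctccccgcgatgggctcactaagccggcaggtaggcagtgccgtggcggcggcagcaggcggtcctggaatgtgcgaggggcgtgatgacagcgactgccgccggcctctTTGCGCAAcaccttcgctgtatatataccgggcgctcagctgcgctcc
Sftpb held CTCAAG at 2 places, bases -100 to -95 and -15 to -10 from the start, and Sftpa1 held it at -166 to -161. Lamp3 held TGTTTAC at -92 to -86, and Slc34a2 held TTGCGCAA at -48 to -41, in a start site that lies inside the longer gene of the GENCODE annotation. Nkx2-1, Abca3 and Lyz1 had none of these letters in the same window. Among 32851 promoters of this length 13.3% held CTCAAG, 3.17% held TGTTTAC and 5.65% held TTGNNCAA. A match of these letters is a description of the sequence, and binding was not measured.

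The levels of the 7 scarce genes were positively correlated over the 17 libraries, less so within one part of them. Their 21 pairs had a Pearson r of log2(CPM + 0.1) of 0.492 to 0.934, with a median of 0.796 (Spearman rho 0.450 to 0.911, median 0.772), given as a description without a p. The closest pair was Sftpb with Lamp3, at r = 0.934. The table's columns form separate sorted stretches of 8 and 9 libraries. Within the 8 the 21 pairs had an r of 0.770 to 0.985 (median 0.913). Within the 9 they had -0.079 to 0.978 (median 0.724), lower than the pooled r in 19 of 21 pairs, and the lowest were Sftpa1 with Nkx2-1 (-0.079) and with Sftpd (0.256). These points share libraries and their composition, and the order of the libraries differed between genes. Ephb4 CKO bleomycin mouse 3 and Ephb4 CKO PBS mouse 3 ranked among the top 4 of 17 libraries for 7 of the 7 genes, Ephb4 control PBS mouse 3 for 6, and Ephb4 control bleomycin mouse 1 and Ephb4 control PBS mouse 2 for 3 each. Ephb4 control bleomycin mouse 1 was in the top 8 for all 7 genes and Ephb4 control PBS mouse 2 for 6. Ephb4 control bleomycin mice 3 and 4 and Ephb4 CKO bleomycin mouse 2 were in the top 8 for none of them. The 3 libraries of mice numbered 3 belong to the shorter column stretch and to animals with numbers starting 11, and the part of either in the pattern was not tested.

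**Figure D2:**
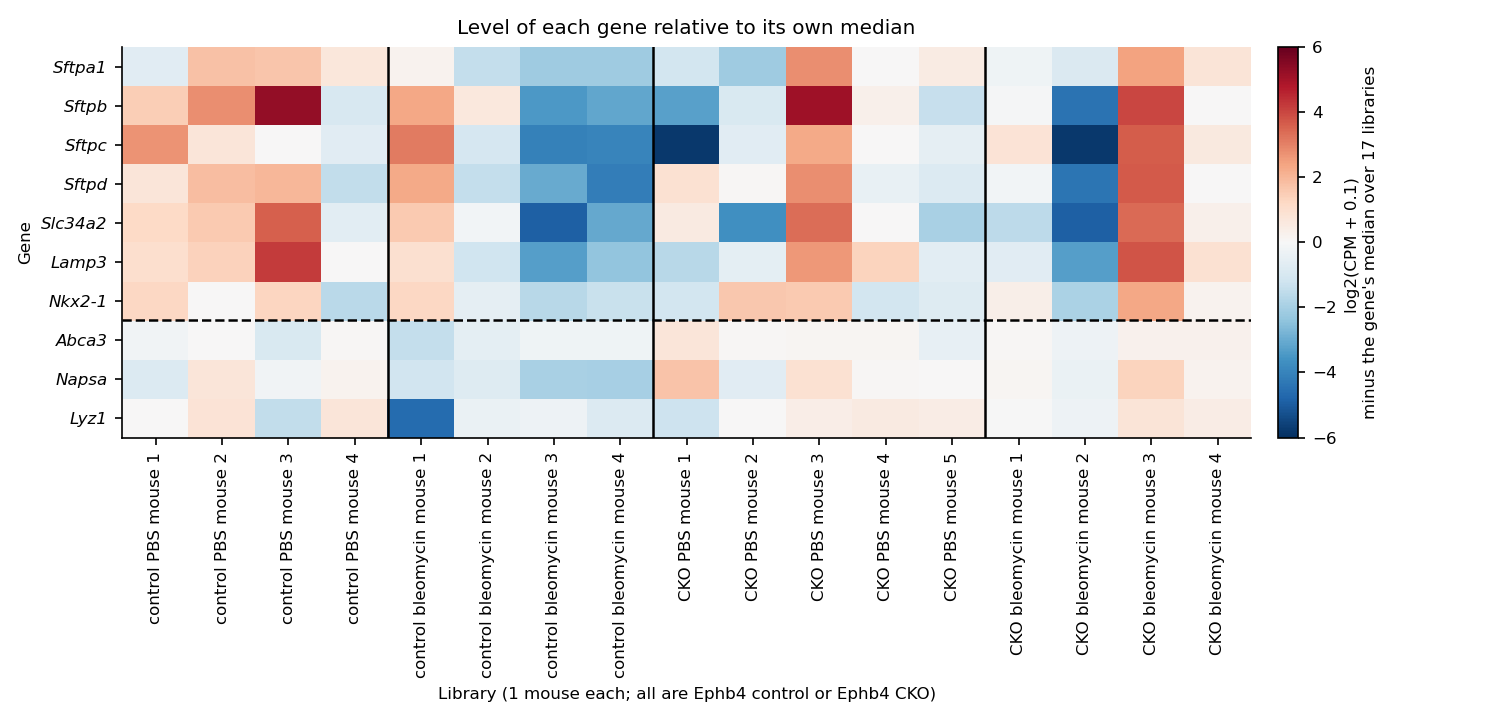
Level of each gene (rows) in each library (columns, split by group), as log2(CPM + 0.1) minus the gene's median over the 17 libraries; red is above and blue below the median. The 7 genes above the dashed line are red together in mouse 3 of the Ephb4 CKO PBS and Ephb4 CKO bleomycin groups. In mouse 3 of the Ephb4 control PBS group they are too, apart from Sftpc, which is near its median there. The 3 genes below the line are paler, apart from Lyz1 at 18.3 CPM in Ephb4 control bleomycin mouse 1.

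The 3 genes outside the 10 that were most like each of the 7 were taken by Pearson r of log2(CPM + 0.1) over 17 libraries, among genes with a mean of at least 1 CPM. Sftpb was followed by Cxcl17 (0.962), a mucosal chemokine, Npr1 (0.949), the receptor of atrial natriuretic peptide, and Egfl6 (0.945). Sftpc was followed by Cldn18 (0.902), a tight junction protein of the alveolar epithelium, Fgfr3 (0.898) and Tmem116 (0.895). Sftpd was closest to Areg (0.961), a ligand of the EGF receptor, Cxcl15 (0.937), a chemokine of lung epithelium, and Krt23 (0.919), a keratin. Cxcl15 and Npr1 also followed Slc34a2 (0.934 and 0.891) and Lamp3 (0.936 and 0.920), with Chil1 (0.923), a chitinase-like protein, for Slc34a2 and Cpm (0.945), a membrane carboxypeptidase, for Lamp3. Nkx2-1 was closest to Sfta3-ps (0.967), a transcript of the same strand at chr12:56488321-56529427, next to Nkx2-1 at chr12:56531958-56536908, then Muc1 (0.943), a mucin, and 2010300C02Rik (0.943). Sftpa1 was closest to Gsta4 (0.932), a glutathione transferase, Tmem212 (0.922) and Gm31718 (0.904).

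Abca3, Napsa and Lyz1 had other neighbours. Abca3 encodes the transporter that loads phospholipid into lamellar bodies. Its level was 48.9, 55.9, 29.6 and 58.2 CPM in Ephb4 control PBS mice, 20.6, 37.2, 46.1 and 46.0 in Ephb4 control bleomycin mice, 94.0, 58.3, 60.0, 60.0 and 39.2 in Ephb4 CKO PBS mice and 58.3, 45.0, 67.1 and 66.5 in Ephb4 CKO bleomycin mice. It varied 4.56-fold in all, less than any other of the 10. Abca3 was lowest in Ephb4 control bleomycin mouse 1, one of the libraries richest in Sftpc, and its 3 closest genes were Itgal (0.930), an integrin chain of leukocytes, the long noncoding RNA AU020206 (0.923) and Cd33 (0.920), a lectin of myeloid cells. Its r with the 7 scarce genes ran from -0.217 (Sftpb) to 0.046 (Sftpd).

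Napsa encodes napsin A, an aspartic protease that takes part in the processing of SP-B in type 2 cells. It stood at 10.4, 30.7, 16.0 and 21.4 CPM in Ephb4 control PBS mice and at 8.49, 10.8, 4.81 and 4.66 CPM in Ephb4 control bleomycin mice. Ephb4 CKO mice had 61.0, 11.7, 34.9, 19.5 and 18.7 CPM after PBS and 19.98, 13.9, 47.3 and 21.9 CPM after bleomycin. The 4 Ephb4 CKO bleomycin libraries were all above the 4 Ephb4 control bleomycin libraries, while Ephb4 control PBS mouse 1, at 10.4, fell below the highest Ephb4 control bleomycin library, at 10.8. The highest Napsa and the highest Abca3 were both in Ephb4 CKO PBS mouse 1, where Sftpc was at 0 and Sftpb at 0.127 CPM. Over the 17 libraries Napsa was less apart from the scarce genes than Abca3 and Lyz1 were. Its r with the 7 ran from 0.211 (Sftpc) to 0.653 (Sftpa1), beside 0.358 with Lyz1 and 0.606 with Abca3. Within the 8 libraries of one column stretch its r with the 7 ran from 0.705 (Sftpb) to 0.969 (Sftpc). Within the 9 of the other stretch it ran from -0.303 (Sftpc) to 0.379 (Slc34a2). Outside the 10 genes Napsa was closest to Acvr1b (0.920), an activin receptor, B9d2 (0.915) and Tmco4 (0.907). Its r with the summed level of 16 other surfactant metabolism genes was 0.837 (rho 0.882), and the most abundant of those, Csf2rb, is the shared chain of the GM-CSF receptor on myeloid cells.

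Ephb4 CKO PBS mouse 1 stood apart in a further way. Its Sftpd (11.5 CPM) and Slc34a2 (4.27 CPM) were well above its Sftpb and Sftpc, and its 11 pan-epithelial markers summed to 160 CPM, the second lowest sum. The 11 other alveolar type 2 markers summed to 992 CPM there, the highest of the 17 libraries, of which Lcn2, a siderophore-binding protein also made by neutrophils and macrophages, was 920 CPM. Pdpn, the most abundant of 7 alveolar type 1 markers and a gene of several other cell types, reached 1810 CPM in this library.

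Lyz1 encodes lysozyme P, a bacteriolytic enzyme that type 2 cells secrete, and lies beside Lyz2, the lysozyme of macrophages. Lyz1 is at chr10:117287797-117292868 and Lyz2 at chr10:117277331-117282321, both on the minus strand. In Ephb4 control mice Lyz1 was at 456, 788, 158 and 739 CPM after PBS and 18.3, 332, 358 and 248 CPM after bleomycin. In Ephb4 CKO mice it was at 188, 444, 594, 643 and 608 CPM after PBS and 437, 359, 768 and 609 CPM after bleomycin. The 4 Ephb4 CKO bleomycin libraries were again all above the 4 Ephb4 control bleomycin libraries, though by a narrow margin, 359 against 358 CPM. Ephb4 control bleomycin mouse 1, among the highest in Sftpc, had the lowest Lyz1 of all.

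The Lyz1 count was a near fixed share of the Lyz2 count. It was 2.07 to 2.49% of it over 17 libraries (median 2.24, SD 0.152), while Lyz2 itself ran from 0.112 to 3.42% of a library's counts. The 2 genes followed each other at r = 0.998, and Lyz1 was next closest to Mertk (0.968), a macrophage receptor for dying cells, and Sash3 (0.965), a lymphocyte adaptor. The summed level of 10 macrophage markers followed Lyz1 at r = 0.990 (rho 0.963). Lyz2 makes up most of that sum, with a mean of 19710 CPM against 918 for the next marker. This r therefore largely repeats the one with Lyz2. Their coding sequences, both 444 bases, are identical at 422 positions and differ at 22. A stretch of 120 coding bases with 14 differences, at bases 37 to 156 of both, is shown with the differing bases in capitals:
Lyz1: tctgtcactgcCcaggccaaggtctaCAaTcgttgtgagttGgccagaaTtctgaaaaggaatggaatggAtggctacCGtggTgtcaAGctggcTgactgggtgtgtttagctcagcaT
Lyz2: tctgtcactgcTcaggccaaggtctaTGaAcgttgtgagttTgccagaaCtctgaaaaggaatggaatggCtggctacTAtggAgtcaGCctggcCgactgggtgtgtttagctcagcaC
Of 1189 runs of 75 bases in the Lyz1 transcript, the read length used, 74 occur unchanged in that of Lyz2 (6.22%). The Lyz1 level is therefore uncertain as a measure of Lyz1 itself, and how the counting divided reads between the 2 genes was not tested.

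**Figure D3:**
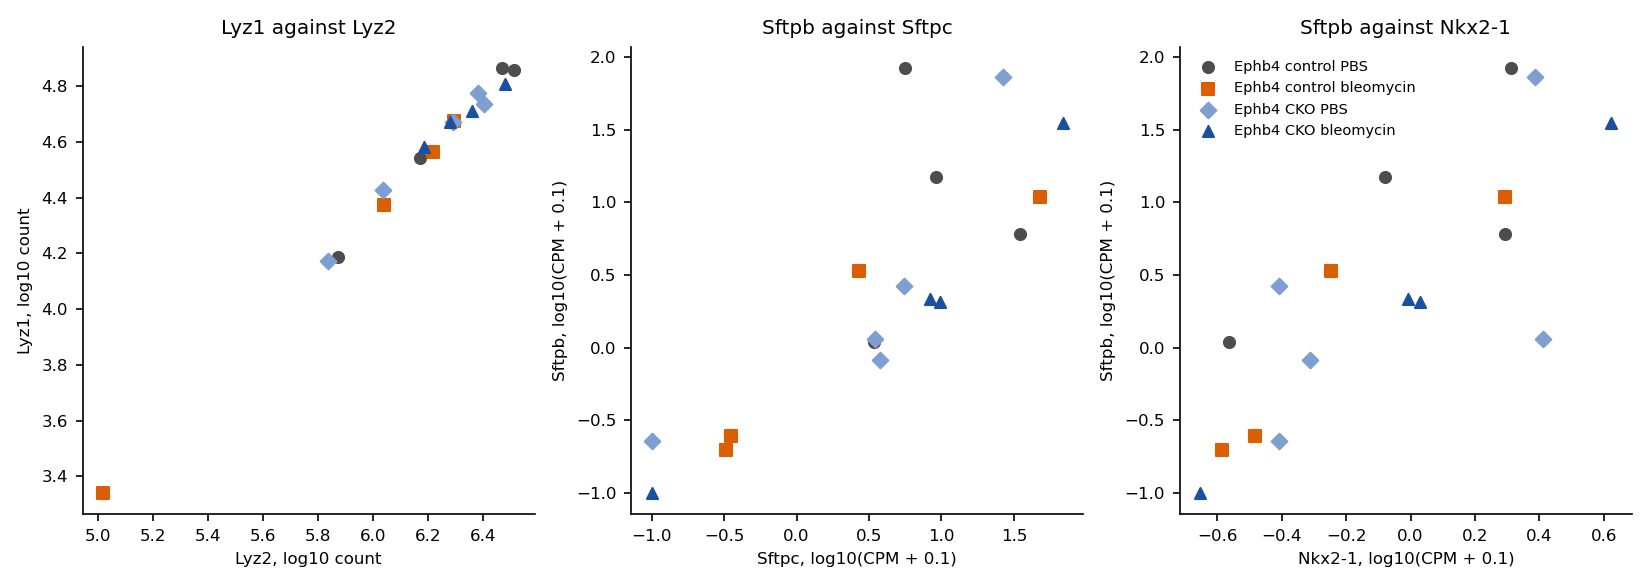
Pairs of genes across the 17 libraries, 1 point a library, with symbols by group: Lyz1 against Lyz2 as log10 counts (left), and Sftpb against Sftpc (middle) and against Nkx2-1 (right) as log10(CPM + 0.1). The Lyz1 points lie on a line at 2.07 to 2.49% of Lyz2, and the Sftpb points scatter widely around Sftpc, from 0.171 to 15.1 counts for 1.

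Bleomycin against PBS in Ephb4 control mice compares injured with uninjured cultures in mice without the deletion. Every bleomycin mouse here had a number starting 12, while PBS mice 2 to 4 had numbers starting 11. Injury and number series are therefore largely confounded, and the groups also differed in fibroblast marker levels. All 10 genes had a lower fitted level after bleomycin. The median of their log2 fold changes was -1.31, beside -0.07 over all 21136 genes, of which 55.5% were lower. With number series (animal numbers starting 11 or 12) as a covariate the sign turned for Sftpb, Sftpc and Sftpd, and with column stretch for Sftpc and Sftpd. None passed an adjusted p of 0.05 in edgeR's quasi-likelihood test, as was true of every gene (0.0% called). The smallest adjusted p of all genes was 0.263. An unadjusted p under 0.05 was found for 1 of the 10 genes and for 11.5% of all genes (2436). DESeq2 called 257 genes and limma voom 1, none of the 10 among them. The 1 gene with an unadjusted p under 0.05 was Napsa, with a log2 fold change of -1.45 (SE 0.52, adjusted p = 0.396). The lowest fitted values were those of Lamp3, -3.36 (SE 1.82, adjusted p = 0.481), Sftpa1, -2.87 (SE 1.61, adjusted p = 0.486), and Sftpb, -2.87 (SE 2.14, adjusted p = 0.601). Slc34a2 was at -2.21 (SE 1.94), Lyz1 at -1.16 (SE 0.67), Sftpd at -0.83 (SE 1.49), Nkx2-1 at -0.79 (SE 1.08) and Abca3 at -0.36 (SE 0.29). Sftpc was at -0.05 (SE 1.85), with 1 bleomycin library at 48.1 CPM and 3 at 2.60 or less. Without that library, mouse 1, it was -3.69, and without PBS mouse 1 it was 1.05. In 0 of the 10 genes were the groups apart, against 7.93% of all genes.

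Ephb4 CKO against control mice after bleomycin asks whether the deletion alters the injured cultures. Ephb4 CKO mice 3 and 4 had numbers starting 11 here, and every control mouse a number starting 12. All 10 genes had a higher fitted level in Ephb4 CKO mice, with a median log2 fold change of 1.45 beside 0.00 over all genes, of which 50.2% were higher. That count rests on Ephb4 CKO bleomycin mouse 3: without it Sftpb was at -1.43, Sftpc at -1.10, Sftpd at -1.10, Slc34a2 at -0.95 and Nkx2-1 at -0.05. The sign also turned with number series as a covariate for Sftpb, Sftpc, Sftpd, Slc34a2 and Lamp3, with column stretch for Sftpb and Slc34a2, with recorded sex for Sftpc, and in limma voom for Sftpb. No gene passed an adjusted p of 0.05 (0.0% of all genes, smallest adjusted p 0.296), and an unadjusted p under 0.05 was found for 2 of the 10 and for 15.2% of all (3222). DESeq2 called 425 genes and limma voom 1. The 2 genes with an unadjusted p under 0.05 were Napsa, at 1.84 (SE 0.53, adjusted p = 0.296, edgeR), and Abca3, at 0.66 (SE 0.30, adjusted p = 0.314, edgeR). Lamp3 was at 2.80 (SE 1.78), Sftpa1 at 2.79 (SE 1.60), Slc34a2 at 1.65 (SE 1.90), Sftpd at 1.46 (SE 1.51), Sftpb at 1.44 (SE 2.04), Lyz1 at 1.19 (SE 0.67), Nkx2-1 at 1.15 (SE 1.09) and Sftpc at 0.76 (SE 1.86). The groups did not overlap for Napsa and Lyz1, 2 of 10 genes, against 17.7% of all genes, a share near that background. Both bleomycin comparisons share the 4 Ephb4 control bleomycin libraries, so their opposite signs are not separate observations.

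Of the 10 genes Napsa lay furthest from 0 in units of SE. Without the 3 libraries against their recorded sex its log2 fold change was 2.53 (adjusted p = 0.354, edgeR), and with each mouse left out in turn it stayed between 1.37 and 2.11, with an adjusted p of 0.184 to 0.575 in the same test. Among mice with numbers starting 12, the Ephb4 control bleomycin libraries were at 4.66 to 10.8 CPM and the Ephb4 CKO bleomycin libraries, mice 1 and 2, at 19.98 and 13.9 CPM. Both of those, and the control library at 10.8 CPM, are the 3 libraries against their recorded sex, so this within-series comparison rests on them. DESeq2, run as an alternative, gave an adjusted p of 0.0339 at the same fold change (1.83), and was the only tool of 3 to place it under 0.05. On counts simulated for the same comparison DESeq2 recovered more of the changed genes than edgeR or limma voom, and also made more false calls. Those counts were drawn gene by gene from edgeR's own dispersion estimates, without the differences in composition between the real libraries. They therefore cannot decide which tool is right for Napsa. In the same libraries the macrophage markers were all higher in Ephb4 CKO mice (10 of 10, median log2 fold change 1.01), and so were 10 of 10 alveolar macrophage markers (median 2.04), while 10 of 10 fibroblast markers were lower (median -2.96). None of these passed an adjusted p of 0.05 either, and their part in the Napsa, Abca3 and Lyz1 values was not tested.

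**Figure D4:**
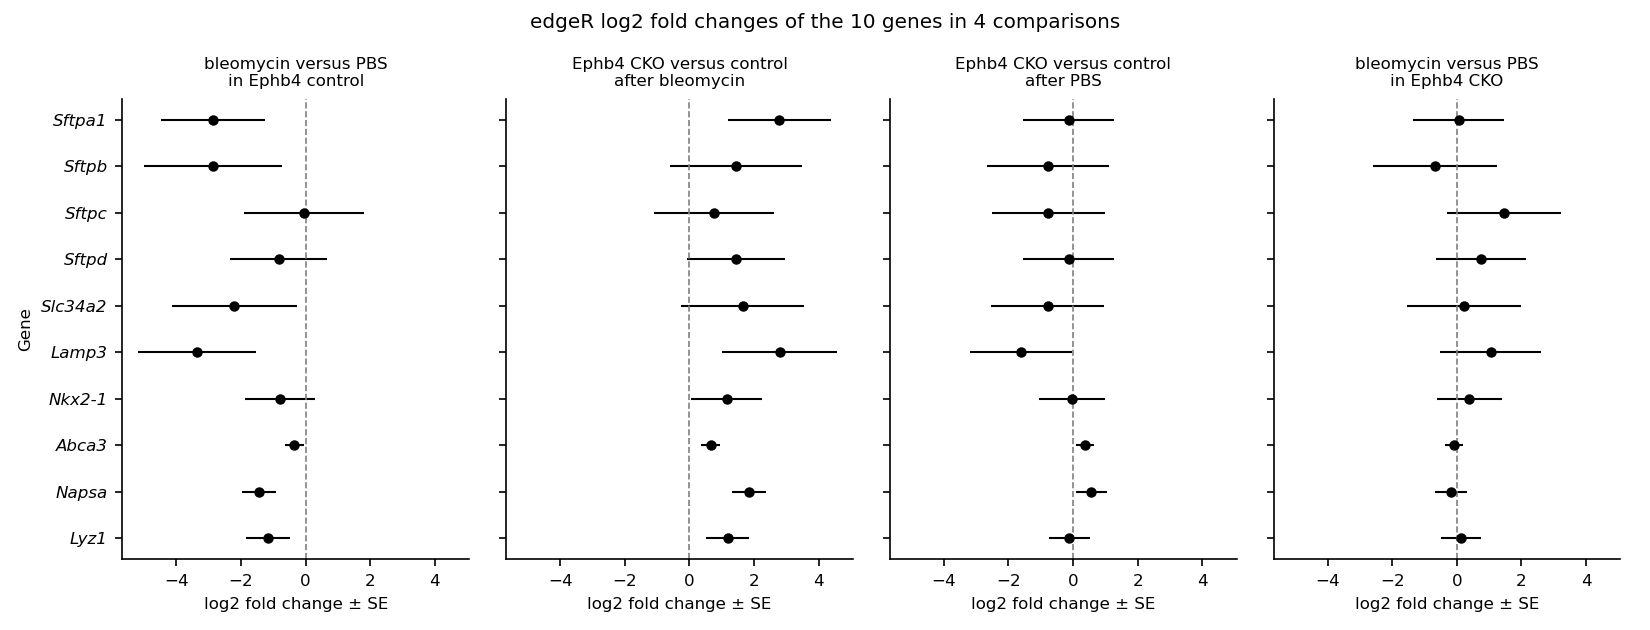
Fitted log2 fold change of each gene with its standard error in 4 comparisons (edgeR, 17 libraries). In the 2 left panels the points of Abca3, Napsa and Lyz1 carry short bars and those of the other 7 genes bars of 1.08 or more, and no gene passed an adjusted p of 0.05.

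After PBS alone, Ephb4 CKO and control mice differed little beside these errors. Of the 10 genes 2 were higher, Napsa (0.57) and Abca3, and 8 lower in Ephb4 CKO mice, down to Lamp3 at -1.61, with a median of -0.13 beside -0.04 for all genes, 54.7% of which were lower. No gene was called (0.0%), each adjusted p was 1 in edgeR's test, and 0 of the 10 genes against 2.22% of all (469 genes) had an unadjusted p under 0.05. DESeq2 called 11 genes and limma voom 0. Bleomycin against PBS in Ephb4 CKO mice gave 7 higher and 3 lower, from Sftpb at -0.67 to Sftpc at 1.47, with a median of 0.18 beside -0.04. Again 0.0% of genes were called and 0 of the 10, against 1.51% (320 genes), had an unadjusted p under 0.05, with 9 genes called in DESeq2 and 0 in limma voom. The difference between the 2 bleomycin responses, tested as an interaction, called none of the 10 genes (0.0% of all), and 0 of them against 3.4% of all genes (718) had an unadjusted p under 0.05. DESeq2 called 16 genes there and limma voom 0.

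Other genes of the pathway were counted from lists. Of 16 further surfactant metabolism genes 14 were fitted, and in Ephb4 control mice 6 were higher and 8 lower after bleomycin (median -0.17). In Ephb4 CKO against control mice after bleomycin 7 were higher and 7 lower (median 0.01). Csf2rb ran from 56.9 CPM in an Ephb4 control bleomycin library to 2593 CPM in Ephb4 CKO PBS mouse 1. The 13 genes of phospholipid synthesis and its control were 9 higher and 4 lower after bleomycin in Ephb4 control mice (median 0.34), and 6 higher and 7 lower in Ephb4 CKO against control mice after bleomycin (median -0.19). Scd1, a fatty acid desaturase and the most abundant of them, ran from 13.4 to 1081 CPM, its highest in Ephb4 CKO bleomycin mouse 3. Of 7 transcription factors of type 2 cells, 5 were lower after bleomycin in Ephb4 control mice (median -0.58) and 4 higher in Ephb4 CKO mice after bleomycin (median 0.07). The most abundant was Cebpa, also a factor of myeloid cells, which ran from 7.14 CPM in the Ephb4 control bleomycin group to 99.1 CPM in Ephb4 CKO bleomycin mouse 4. No gene of these lists passed an adjusted p of 0.05 in any comparison.

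Markers of other cell types are given beside the 10 genes. The 11 other alveolar type 2 markers were 8 lower of 11 after bleomycin in Ephb4 control mice (median -0.85), beside 55.5% of all genes. In Ephb4 CKO against control mice after bleomycin 9 of 11 were higher (median 0.58), beside 50.2% of all genes. Both counts go in the direction of the surfactant genes, with none called. The second shares a library with them: the sum of these markers was 835 CPM in Ephb4 CKO bleomycin mouse 3. It was 19.3, 77.6 and 81.1 CPM in the rest of that group and 22.9 to 269 CPM in Ephb4 control bleomycin libraries. The 11 pan-epithelial markers did not follow the other type 2 markers in the second comparison, with 5 higher and 6 lower (median -0.14), although all 11 were lower after bleomycin in Ephb4 control mice (median -0.99). Across libraries the r of the 7 scarce genes with the sum of other type 2 markers ran from 0.428 (Sftpc, rho 0.579) to 0.882 (Sftpd, rho 0.946). Their r with the pan-epithelial sum ran from 0.126 (Sftpa1) to 0.815 (Nkx2-1, rho 0.814), with Sftpb at 0.587. With the sum of airway club and ciliated cell markers it ran from 0.394 (Slc34a2) to 0.739 (Sftpc). Lyz1 was lower where fibroblast markers were high, at r = -0.647 (rho -0.819). These lists share the libraries of the 10 genes, and the correlations are descriptions without a p.

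The spread of summed levels inside a group differed between lists. Airway markers ran from 5.23 to 6.10 CPM in Ephb4 control bleomycin libraries, and phospholipid synthesis genes from 866 to 1024 CPM in Ephb4 control PBS libraries. Other alveolar type 2 markers summed to 35.7 to 495 CPM (Ephb4 control PBS), 22.9 to 269 (Ephb4 control bleomycin), 40.4 to 992 (Ephb4 CKO PBS) and 19.3 to 835 (Ephb4 CKO bleomycin). Airway markers, of which 4 of 6 were fitted, summed to at most 28.8 CPM, and their most abundant, the ciliated cell factor Foxj1, reached 19.3 CPM in Ephb4 CKO PBS mouse 2. Endothelial markers summed to 45.9 to 276 CPM, with Vwf the most abundant. Alveolar macrophage markers summed to 205 to 8758 CPM, with Chil3 the most abundant, Col3a1 led the fibroblast list at 0.708 to 4265 CPM, and Cd74 led the dendritic list. Ephb4 CKO bleomycin mouse 2, at 0 in Sftpb, Sftpc, Slc34a2 and Lamp3, was also the lowest in the pan-epithelial sum (45.7 CPM) and in the other type 2 sum.

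**Figure D5:**
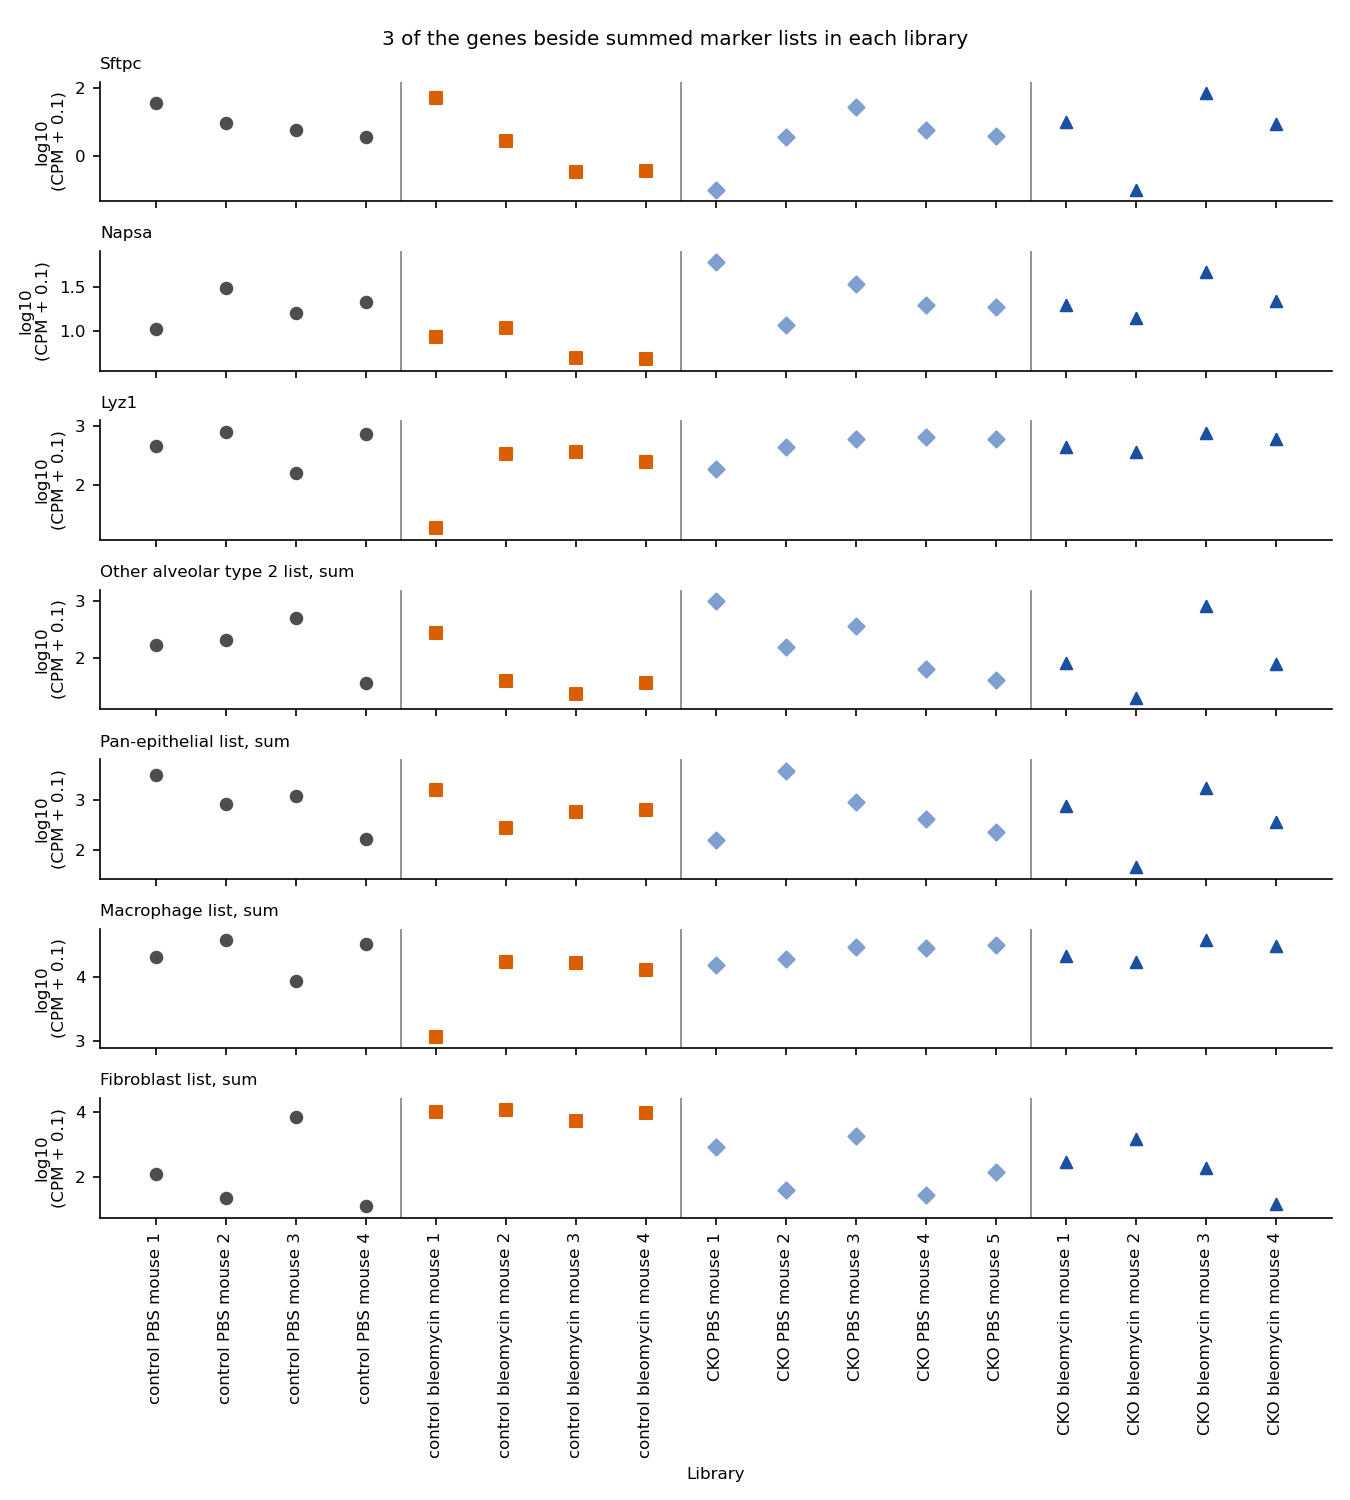
Levels of Sftpc, Napsa and Lyz1 and summed levels of 4 marker lists in each of the 17 libraries, as log10(CPM + 0.1), with symbols by group. The other alveolar type 2 sum follows Sftpc only in part (r = 0.428, rho = 0.579), and more closely without the 2 libraries at 0 in Sftpc (r = 0.784). Ephb4 CKO PBS mouse 1 is at 992 CPM with Sftpc at 0. Ephb4 control PBS mouse 3 is at 495 CPM with Sftpc at 5.51, and Ephb4 control PBS mouse 1 at 169 CPM with Sftpc at 35.0. Lyz1 has the shape of the macrophage sum, which is mostly Lyz2.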

How the data were processed

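RNA of 17 mouse lung cultures, without its ribosomal RNA, was read as stranded paired ends of 75 bases. The authors trimmed reads with Cutadapt (1.18 per the submitters' notes), aligned them to GRCm38 with HISAT2 2.1.0 and made the deposited gene counts with StringTie, as whole numbers derived from coverage, not normalized. Depth was 66540022 to 120554468 counts a library. All 17 columns matched a labelled mouse; 0 columns had no sample. Positions come from GENCODE M21 (55240 of 55421 identifiers matched).

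Genes with at least 10 counts in at least 4 libraries (21136) were tested with edgeR 4.0.16 (R 4.3.3): TMM, quasi-likelihood test, 1 mean a group, Benjamini-Hochberg over all of them, threshold 0.05. The study's batch number was not used, since the labels do not give it, and its filter (CPM above 10 in 2 libraries) would drop Sftpa1 and Nkx2-1. The common dispersion was 0.462. The steps were tested on simulated counts. Correlations used log2(CPM + 0.1). Replicates are separate mice.

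Genes named are the 10 genes, Ephb4, Lyz2, the 3 genes best correlated with each of the 10 (mean of at least 1 CPM), and the most abundant gene of each list; others are marked in the text. The genes and lists were chosen with earlier results of these data known. Alternatives were DESeq2 1.42.0, limma 3.58.1 voom, RLE scaling, the study's filter, no filter, a fit of the compared groups alone, a covariate for recorded sex, number series or column stretch (8 and 9 columns), no libraries against recorded sex, each mouse left out, and plain library totals.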

Additional observations from a re-analysis of the deposited data

Results flagged for a closer look

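In 15 of the 40 combinations of gene and group, the highest library stood apart from the others by Dixon's criterion. Its chance rate of about 1 in 20 groups holds for independent, normally distributed values. The levels of the scarce genes were skewed and correlated with each other, so the count cannot be set against that rate. All 15 were among the 7 scarce genes, and they came from 4 libraries.

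In Ephb4 CKO bleomycin mouse 3 these were Sftpb at 34.8 CPM, Sftpc at 68.7, Sftpd at 80.1, Slc34a2 at 31.7 and Lamp3 at 13.6. In Ephb4 CKO PBS mouse 3 they were Sftpa1 at 2.95 CPM, Sftpb at 72.5, Sftpc at 26.6, Sftpd at 42.2 and Slc34a2 at 30.8. Ephb4 control bleomycin mouse 1 stood apart in Sftpa1 at 0.400 CPM, Sftpc at 48.1 and Sftpd at 30.4. Ephb4 control PBS mouse 3 stood apart in Sftpb at 83.4 CPM and Lamp3 at 18.1. Abca3, Napsa, Lyz1 and Nkx2-1 had no such library in any group.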

How the results depend on the processing

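DESeq2 called more genes than edgeR, which called 0 in each comparison: 257 for bleomycin against PBS in Ephb4 control mice, 425 for Ephb4 CKO against control after bleomycin, 11 for the same after PBS, 9 for bleomycin against PBS in Ephb4 CKO mice and 16 for the interaction. limma voom called 1, 1, 0, 0 and 0. Every other alternative called 0, with any mouse left out too. On simulated counts for Ephb4 CKO against control after bleomycin DESeq2 recovered more of the changed genes than the other 2 tools and made more false calls. Those counts lacked the differences in composition between the real libraries, and the cause of the difference between tools was not tested. Napsa in Ephb4 CKO against control mice after bleomycin passed the threshold in DESeq2 (1.83, adjusted p = 0.0339) and under no other alternative.

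Of 236 values of 24 fold changes under alternatives other than leaving out a mouse, 218 kept their direction and side of the threshold and 17 turned sign, none of them called. For bleomycin against PBS in Ephb4 control mice these were, with number series as a covariate, Sftpb (0.29), Sftpc (0.25) and Sftpd (0.40), with column stretch Sftpc (0.045) and Sftpd (0.093), with recorded sex Sftpc (0.62), and without the libraries against their recorded sex Sftpc (0.29). For Ephb4 CKO against control after bleomycin they were, with number series, Sftpb (-1.80), Sftpc (-0.21), Sftpd (-0.06), Slc34a2 (-0.95) and Lamp3 (-0.052), with column stretch Sftpb (-1.09) and Slc34a2 (-0.27), with recorded sex Sftpc (-0.28), and in limma voom Sftpb (-0.071). Sftpb for bleomycin against PBS in Ephb4 CKO mice turned to 0.26 without the libraries against their recorded sex.

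Leaving out each mouse in turn turned the sign in 12 of 408 fits. The ranges were -3.69 to 1.05 for Sftpc after bleomycin in Ephb4 control mice. For Ephb4 CKO against control after bleomycin they were -1.43 to 3.04 for Sftpb, -1.10 to 4.40 for Sftpc, -1.10 to 4.47 for Sftpd, -0.95 to 3.29 for Slc34a2 and -0.052 to 2.41 for Nkx2-1. They were -2.66 to 0.13 for Lamp3 in Ephb4 CKO against control after PBS, and -3.53 to 3.12 for Sftpb and -0.39 to 2.80 for Sftpc after bleomycin in Ephb4 CKO mice. Of the 16 fold changes not given singly, 13 of 156 values turned sign under other alternatives and 38 of 272 with a mouse left out. Scaling by plain library totals multiplied the 40 group means by 0.873 to 1.28. No paired analysis was possible because the labels give no mouse of one group a partner in another. With 4 or 5 mice a group and an SD near or above the mean for most of the 7 scarce genes, the spread between mice limits what these comparisons can show; at this depth a level of a few hundredths of a CPM is still counted.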
